A study of Drosophila melanogaster with 3 samples.

Results

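The genes described here are 10 transcription factor genes that pattern the early fly embryo along its length: the terminal gap genes tll and hkb, the trunk gap genes kni and gt with the kni relative knrl, the posterior gene cad, and the head genes oc, ems and btd with the btd relative Sp1. They were taken by name, as 10 of 13945 protein-coding genes. The binding of Prospero, a homeodomain transcription factor that neuroblasts hand to the smaller daughter at division, was mapped at them by ChIP-seq, with DNA recovered by an anti-GFP antibody. The material was whole Drosophila melanogaster embryos of 2 to 18 h, males and females pooled, of the transgenic strain pros-GFP, which stably expresses pros with GFP at its C terminus. All 3 biological replicates belong to this 1 group, and no other genotype, stage or treatment was compared. The labels call the line an insertion targeting pros. They give neither the promoter of the fusion nor the state of the resident pros gene, and binding in whole embryos cannot be placed in a cell type.

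Each replicate has a list of 30000 peaks, and a further 30000 come from the pooled reads. The optimal set holds the 6215 peaks kept by the authors with IDR (irreproducible discovery rate), a method based on rank agreement between replicates. It consists of the 6215 strongest peaks of the pooled list, and not every peak in it was found in every replicate list. Within each peak the files mark 1 position, the summit. It was given to a gene when it lay in the gene body, up to 1 kb upstream, or in intergenic sequence for which that gene has the nearest transcript start. Peaks were ranked within each list by the authors' signal, whose scale is not stated, so that rank 1 is the strongest. The lists hold no read counts, and sequencing depth is unknown. Among the 6215 strongest peaks of a replicate, between 73.7% and 75.9% had a summit within 150 bp in another replicate.

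Gap genes are switched on in the blastoderm by maternal gradients and divide the embryo into broad regions, mostly by repressing each other and by setting the stripes of the pair-rule genes. The head gap genes act in the anterior, where segments form without pair-rule input. Several of these factors are used again later, when the nervous system forms: tll, oc and ems are known for their parts in the brain, and hkb is expressed in subsets of neuroblasts.

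The optimal set held 20 summits at these genes, and 8 of the 10 genes had at least 1. By the same assignment 19.5% of all protein-coding genes had a summit. Each of the 10 genes was assigned between 9.36 and 39.1 kb of sequence, against a median of 3.85 kb for all protein-coding genes, and among the 2438 genes with an amount of sequence in that range 41.5% had a summit. The 20 summits fell in 18 separate stretches of overlapping peaks, and none of them was assigned to a further gene. The density over the assigned sequence was 8.45 summits per 100 kb at the 10 genes together. It was 6.3 per 100 kb at genes of the same range of assigned sequence and 4.64 per 100 kb over the whole of the chromosome arms. Among the 10 genes the density was uneven, with 22.4 per 100 kb at tll, 20.4 at oc and at most 9.12, at hkb, in the others. No test was made of these differences.

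The sequence under the strongest summit of each gene in the optimal set is given here. Each window is 121 bp centred on the summit and read along the gene's strand (dm6 coordinates, bases from the RefSeq copy of that assembly). The second oc window is added because it holds AAGACG, the core of the Prospero recognition site, which the ems window also holds. The gt and btd windows come from the pooled list, since these 2 genes had no summit in the optimal set. Capitals mark every match, on either strand, to AAGACG, to CAGGTAG, which the early activator Zelda binds, to GAGAG, which the GAGA factor binds, and to TAATCC, a site type of Orthodenticle-like homeodomains. Adjoining capitals can belong to more than 1 motif.
tll, chr3R:30851976-30852096, plus strand: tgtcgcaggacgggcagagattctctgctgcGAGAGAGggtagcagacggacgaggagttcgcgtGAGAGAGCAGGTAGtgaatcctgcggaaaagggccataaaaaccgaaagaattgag
knrl, chr3L:20620668-20620788, minus strand: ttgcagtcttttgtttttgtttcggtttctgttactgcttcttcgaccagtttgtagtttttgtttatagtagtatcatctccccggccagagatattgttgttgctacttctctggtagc
kni, chr3L:20695426-20695546, minus strand: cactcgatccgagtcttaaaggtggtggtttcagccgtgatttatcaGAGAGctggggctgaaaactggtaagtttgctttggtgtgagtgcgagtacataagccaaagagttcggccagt
hkb, chr3R:4346747-4346867, minus strand: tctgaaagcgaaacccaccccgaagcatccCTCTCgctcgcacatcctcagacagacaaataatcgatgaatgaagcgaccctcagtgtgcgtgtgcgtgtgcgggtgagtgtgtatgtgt
cad, chr2L:20770475-20770595, plus strand: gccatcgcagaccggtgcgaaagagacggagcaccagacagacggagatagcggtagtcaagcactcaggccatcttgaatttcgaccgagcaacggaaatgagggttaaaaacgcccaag
oc, chrX:8660512-8660632, minus strand: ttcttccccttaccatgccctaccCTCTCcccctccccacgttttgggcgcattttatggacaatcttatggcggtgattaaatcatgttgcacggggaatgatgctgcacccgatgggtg
oc, chrX:8655386-8655506, minus strand: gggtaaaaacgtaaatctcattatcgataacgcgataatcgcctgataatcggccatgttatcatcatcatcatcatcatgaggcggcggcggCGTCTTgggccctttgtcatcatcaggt
ems, chr3R:13901682-13901802, plus strand: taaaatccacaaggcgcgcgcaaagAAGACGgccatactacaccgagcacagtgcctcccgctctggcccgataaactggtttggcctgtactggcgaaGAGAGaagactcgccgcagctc
Sp1, chrX:9744459-9744579, plus strand: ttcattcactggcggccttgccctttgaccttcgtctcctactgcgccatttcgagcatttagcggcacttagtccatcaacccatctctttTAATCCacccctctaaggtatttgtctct
gt, chrX:2428999-2429119, minus strand: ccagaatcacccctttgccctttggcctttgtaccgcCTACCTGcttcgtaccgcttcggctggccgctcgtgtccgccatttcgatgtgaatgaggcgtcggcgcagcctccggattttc
btd, chrX:9694016-9694136, plus strand: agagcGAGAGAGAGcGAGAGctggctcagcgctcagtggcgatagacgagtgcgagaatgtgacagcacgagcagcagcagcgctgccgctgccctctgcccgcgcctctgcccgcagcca

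**Figure D1:**
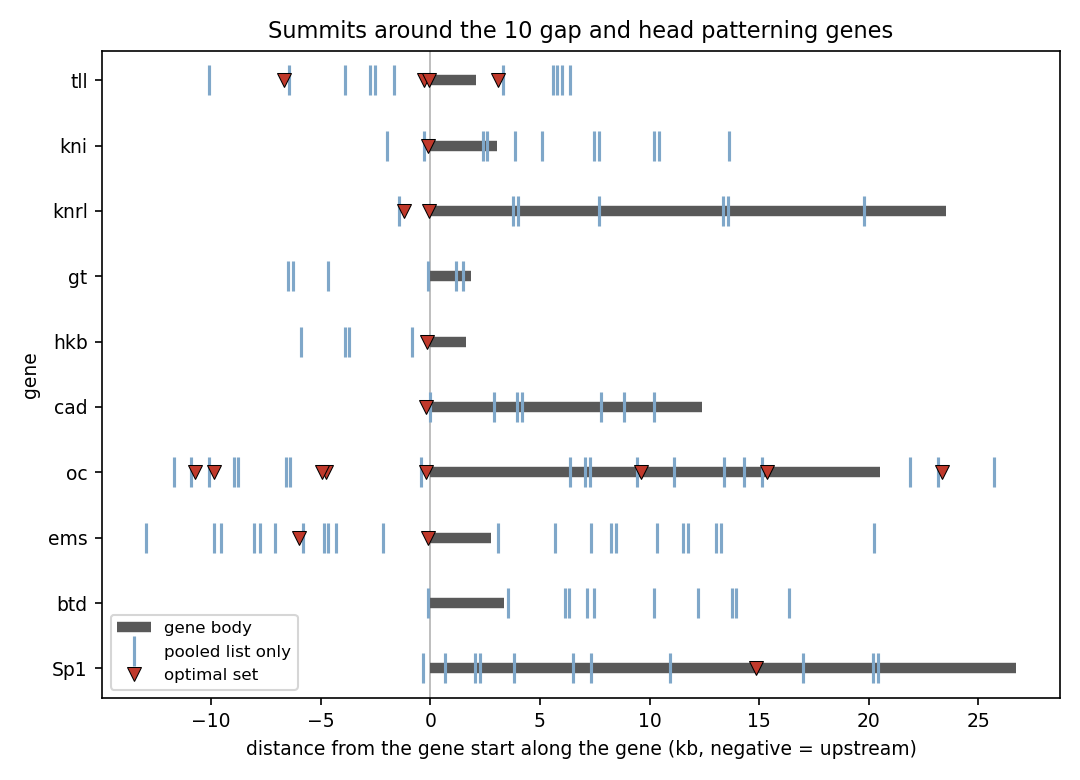
Positions of all summits of the pooled list at the 10 genes, as distance from the gene start in kb along the gene. Red triangles are the 20 summits of the optimal set, blue ticks are summits of the pooled list only, and grey bars are gene bodies. Triangles stand just upstream of the start in 7 of the 10 genes, and oc has the most, 8.

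Of the 20 summits, 8 lay within 500 bp of a transcript start, at tll (2 summits), kni, knrl, hkb, cad, oc and ems. That is 40% of them, near the 34.0% of the whole optimal set. All 8 were on the upstream side, 69 to 279 bp from the start, while 63.7% of the 2116 summits at promoters in the optimal set were upstream. The median distance was 136 bp for these 8 and 158 bp for all promoter summits. A further 9 summits were intergenic and 3 were intronic, and 7 lay more than 5 kb from the nearest start. Over the whole set 41.8% of summits were intronic and 19.9% intergenic. These counts and shares were not adjusted for the kind of sequence assigned to each gene. Of that sequence, 31.5 of 34.3 kb was intergenic at ems, and 0.579 of 27.7 kb at Sp1. None of the 20 was in coding sequence or in a UTR.

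The terminal gap gene tll (tailless, FBgn0003720, 3R 30852315 to 30854400, plus strand) had the strongest summit of all 10 genes. It encodes an orphan nuclear receptor, mostly a repressor, that sets the ends of the embryo and is later needed in the brain. Its leading summit, at 30852036 and 279 bp upstream of the start, had rank 373 in the optimal set, and ranks 316, 507 and 410 in the lists of replicates 1, 2 and 3, a mean of 411 ± 95.5 (SD, n = 3). All 3 replicates placed it ahead of every other summit of the 10 genes. Among the 2714 protein-coding genes with a summit, ordered by their strongest, tll stood at place 288. The genes next to it in that order were kirre and ptc, at ranks 370 and 371, and CG17121 and otk, at ranks 374 and 376.

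The other 3 tll summits were weaker. A summit past the 3′ end of the gene, at 30855412 and 3.1 kb downstream of the start, had rank 2159 and replicate ranks 1774, 2672 and 2877. A summit 6.67 kb upstream, at 30845646, had rank 4674 and replicate ranks 3680, 4530 and 6524. The remaining one, at 30852241, was 74 bp upstream of the start and inside the same called peak as the leading summit. Its rank was 3998 in the optimal set but 2526, 16443 and 17807 in replicates 1, 2 and 3, so that only replicate 1 had it among its 6215 strongest peaks.

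The second terminal gene, hkb (huckebein, FBgn0261434, 3R 4345015 to 4346646, minus strand), encodes a zinc-finger repressor of the Sp and KLF type. It had a single summit in the optimal set, at 4346807 and 161 bp upstream of the start, with rank 3704. Its replicate ranks were 2912, 5724 and 4435 (mean 4357 ± 1408, SD, n = 3). A second hkb summit, at 4350342 and 3.7 kb upstream, fell just outside the optimal set, at rank 6319 of the pooled list, and was at ranks 4282, 5861 and 9846 in the replicates. Replicates 1 and 2 had it among their 6215 strongest peaks, which is why hkb counted 2, 2 and 1 summits there.

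The trunk gap gene kni (knirps, FBgn0001320, 3L 20692330 to 20695378, minus strand) and its relative knrl (FBgn0001323, 3L 20597141 to 20620659, minus strand) encode closely related factors with nuclear receptor zinc fingers and no ligand-binding domain. Each had a summit right at its promoter. That of knrl, at 20620728 and 69 bp upstream of the start, was much the stronger in rank: 680 in the optimal set, and 446, 815 and 1040 in replicates 1, 2 and 3 (mean 767 ± 300, SD, n = 3). That of kni, at 20695486 and 108 bp upstream, had rank 2906 and replicate ranks 2110, 4073 and 3885 (mean 3356 ± 1083, SD, n = 3). The 2 sets of replicate ranks did not overlap. No test was made, since the design has 1 group.

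A second knrl summit lay 1.21 kb upstream of the start, at 20621867, with rank 3250 and replicate ranks 3605, 4121 and 3230. The 71.7 kb between knrl and kni held 4 summits of the optimal set, and 7 annotated genes, 1 of them protein-coding. The first 2 are the knrl summits given above. A summit at 20623446, rank 3871, is nearest to the start of lncRNA:CR44684 and would go to knrl if starts of protein-coding genes alone were counted. The remaining summit was assigned to neither gene. The intergenic sequence assigned to kni held 8 summits of the pooled list, and none of them was in the optimal set.

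The third trunk gene, gt (giant, FBgn0001150, X 2427113 to 2428967, minus strand), which encodes a basic leucine zipper repressor, had no summit in the optimal set. Its strongest summit in the pooled list was also at the promoter, at 2429059 and 92 bp upstream of the start. It had rank 8616 there, and ranks 16007, 8608 and 6837 in replicates 1, 2 and 3. No replicate had a gt summit among its 6215 strongest peaks. The best gt ranks were 11833 in replicate 1, at an upstream summit 6.28 kb from the start, and 8608 and 6837 in the others.

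The posterior gene cad (caudal, FBgn0000251, 2L 20770731 to 20783135, plus strand) encodes a homeodomain activator that forms a posterior gradient and later acts in the hindgut. Its summit of the optimal set, at 20770535 and 196 bp upstream of the start, had rank 4682. Among the leading summits of the 8 genes in the optimal set, its replicate ranks had the widest spread, with ranks 4237, 9431 and 4068 (mean 5912 ± 3049, SD, n = 3). Replicate 2 stood apart, and its strongest cad summit, at rank 5903, matched an intronic summit 7.6 kb from the nearest start, at 20778493. That intronic summit had rank 6648 in the pooled list, and ranks 9544 and 7003 in replicates 1 and 3.

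**Figure D2:**
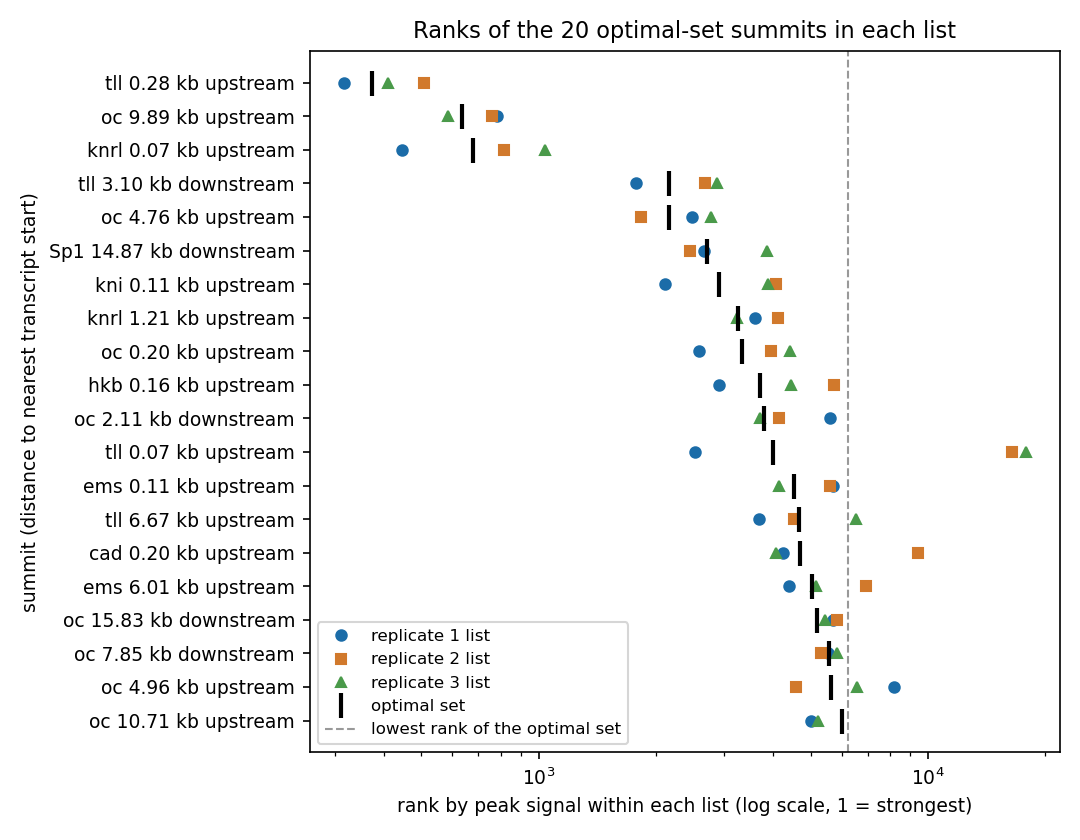
Rank of each of the 20 summits of the optimal set in the list of each replicate (coloured points) and in the optimal set (black bars), on a log axis where 1 is the strongest. Rows are ordered by rank in the optimal set and named by gene and distance to the nearest transcript start. Only 3 summits, 1 each of tll, oc and knrl, rank better than 1000 in the optimal set, and the tll summit 0.07 kb upstream is placed apart by replicate 1.

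The head gene oc (ocelliless, also orthodenticle, FBgn0004102, X 8630159 to 8650681, minus strand) had more summits than any other of the 10, with 8 in the optimal set. It encodes an Otx-type homeodomain protein required for the anterior head and brain. Of the 2438 protein-coding genes assigned 9.36 to 39.1 kb of sequence, 48 had 8 or more summits, which is 1.97%. The upper end of that range is oc itself, so most of these genes have less sequence than oc. The strongest oc summit was not at the promoter but 9.89 kb upstream, at 8660572 in intergenic sequence. It had rank 635, and replicate ranks 780, 760 and 586 (mean 709 ± 107, SD, n = 3). The next, at 8655446 and 4.76 kb upstream, had rank 2164 and replicate ranks 2470, 1831 and 2772. Its window is the only oc window with AAGACG. The motif reads on the opposite strand, and its printed form, CGTCTT, begins 33 bp past the summit along the gene.

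The promoter summit of oc, at 8650883 and 202 bp upstream of the start, was the next, with rank 3326 and replicate ranks 2583, 3952 and 4422. The other 5 oc summits had ranks from 3800 to 6024. They comprise 2 in introns, at 8641065 and 8635328, 1 past the 3′ end of the gene at 8627345, and 2 upstream, at 8655645 and 8661395. The summit at 8655645 shares a called peak with that at 8655446. The weakest, at 8661395 with rank 6024, had ranks 5007 and 5209 in replicates 1 and 3 and no summit within 150 bp in the list of replicate 2.

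The head gene ems (empty spiracles, FBgn0000576, 3R 13901853 to 13904620, plus strand), which encodes a homeodomain protein of the head, brain and posterior spiracles, had 2 weak summits. The promoter summit, at 13901742 and 111 bp upstream of the start, had rank 4536 and replicate ranks 5692, 5598 and 4149 (mean 5146 ± 865, SD, n = 3). Its window holds AAGACG with its first base 35 bp before the summit. The other, at 13895842 and 6.01 kb upstream, had rank 5030 and replicate ranks 4394, 6937 and 5163. Their replicate ranks overlapped, and replicate 1 placed the upstream summit ahead.

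The neighbours btd (buttonhead, FBgn0000233, X 9694186 to 9697558, plus strand) and Sp1 (FBgn0020378, X 9729648 to 9756369, plus strand) encode zinc-finger factors of the Sp family, known for their parts in the head and in the growth of appendages. Sp1 had a single summit in the optimal set, and it was in an intron, 14.9 kb downstream of the start at 9744519. It had rank 2713 and replicate ranks 2654, 2442 and 3853 (mean 2983 ± 761, SD, n = 3). btd had none. Its strongest summit in the pooled list, at 9694076 and 110 bp upstream of the start, had rank 13414 there and ranks 13533, 17380 and 16743 in the replicates. The 32.1 kb between the 2 genes held 15 summits of the pooled list, none in the optimal set, and the best of them had rank 15142.

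The 8 genes with a summit in the optimal set were ordered by the mean replicate rank of their strongest summits there. They ran tll, oc, knrl, Sp1, kni, hkb, ems and cad. The replicate ranks of tll did not overlap those of oc, and those of knrl did not overlap those of Sp1. Every other pair of neighbours in this order had overlapping ranges. Within replicates, kni was ahead of hkb in 3 of 3, while oc and knrl, Sp1 and kni, hkb and ems, and ems and cad changed places between replicates. Across the 19 summits found in all 3 full lists, Spearman's rho of the ranks was 0.696 between replicates 1 and 2. It was 0.667 between replicates 1 and 3, and 0.805 between replicates 2 and 3. These are descriptions over summits, some of which are neighbours.

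The median rank of the 20 summits was 3752, against 3108 for the whole set, and 7 of the 20 were in the stronger 50%. These 7 lay at 5 genes, tll (2), oc (2), knrl, Sp1 and kni. Within 150 bp, 14 of the 20 were found among the 6215 strongest peaks of all 3 replicates, which is near the 63.5% of the whole optimal set. The 6 that were not are the tll summits at 30852241 and 30845646, that of cad, the upstream summit of ems, and those of oc at 8655645 and 8661395. No replicate summit lay more than 93 bp from the optimal-set summit it was matched to.

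**Figure D3:**
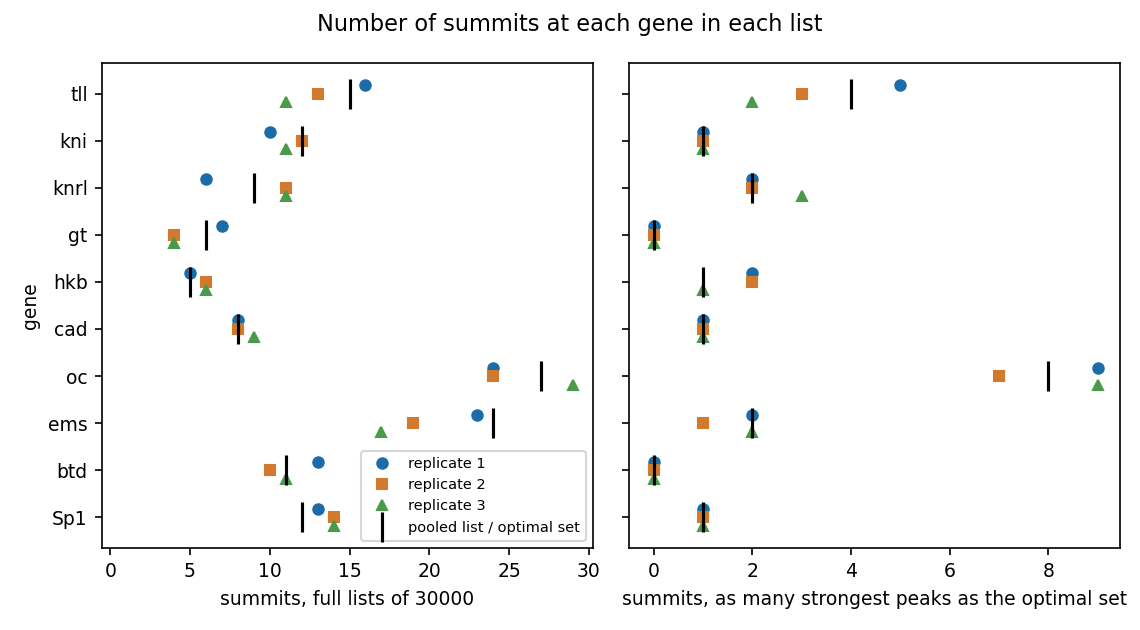
Number of summits at each gene in the 3 replicate lists (coloured points) and in the pooled list or the optimal set (black bars). The left panel uses the full lists of 30000 peaks and the right panel the 6215 strongest peaks of each list. oc has the most in every list of both panels, and gt and btd have none on the right.

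In the longer lists every one of the 10 genes had summits. The pooled list held 129 at these genes, of which 109 were outside the optimal set, and the replicate lists held 125, 121 and 123 (mean 123 ± 2, SD, n = 3). The highest counts were at oc, with 24, 24 and 29 in replicates 1, 2 and 3, and at ems, with 23, 19 and 17. By the mean over the replicates, the fewest were at gt, with 7, 4 and 4, and at hkb, with 5, 6 and 6. In replicate 1 alone knrl, with 6, had fewer than gt. Of the 129, 64 had a summit within 150 bp in all 3 full replicate lists and 2 had none in any, and over the pooled list 53.5% were found in all 3. A replicate summit could be counted for 2 neighbouring summits of the pooled list in this match.

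The share that recurred varied among the genes. At oc 19 of 27 pooled summits were found in all 3 replicates, and at ems 8 of 24, although these genes have like amounts of assigned sequence, 39.1 and 34.3 kb. Of the 24 at ems 23 were intergenic and 18 were more than 5 kb from a start, and of the 27 at oc 15 were intergenic and 17 were that far away. The summits also differed in strength, with 2 of the 24 at ems and 8 of the 27 at oc in the optimal set. The source of the difference in recurrence was not tested. At tll 7 of 15 recurred, at kni 6 of 12, at knrl 5 of 9, at Sp1 7 of 12, at cad 4 of 8, at hkb 3 of 5, at gt 2 of 6 and at btd 3 of 11. Just outside the optimal set came the hkb summit given above and an oc promoter summit at 8651087, 406 bp upstream of the start, with pooled rank 6432 and replicate ranks 5423, 9364 and 5173. That position lies inside the called peak of the oc promoter summit at 8650883, which is in the optimal set.

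**Figure D4:**
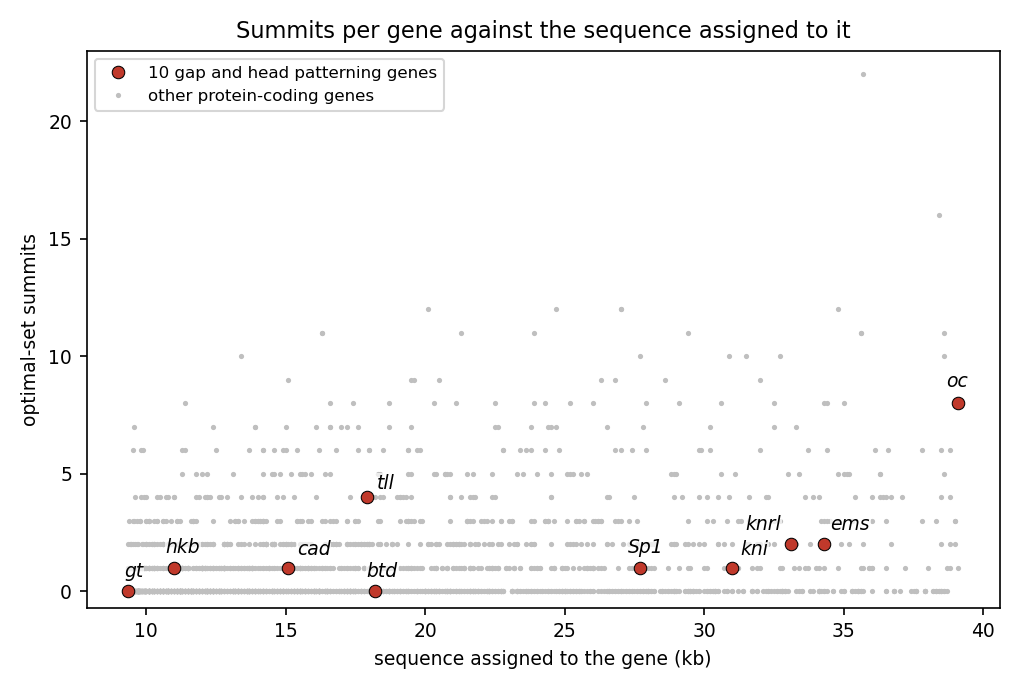
Number of summits of the optimal set per gene against the sequence assigned to the gene in kb, for the 10 genes (red) and for the other protein-coding genes with an amount within the range of the 10 (grey). oc, with 8 summits, and tll, with 4, stand above the remaining 8 genes, which have 0 to 2.

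Few of the windows around the summits held the Prospero core, here and in the optimal set at large. AAGACG was in 2 of the 20 windows reaching 100 bp to either side of the summit, at oc and ems, against 11.3% of all 6215 windows. TAAGACG was in 0 of 20, against 1.9%. CAGGTAG was in 1 window, at the leading tll summit, against 2.53%. TAATCC was in 2 windows, at the Sp1 summit and at the weakest oc summit, against 4.68%. GAGAG was in 10 windows at 7 of the genes, against 40.3%, and in 6 of the 8 promoter windows, against 46.6% of all promoter windows. The median GC content was 51.2% in the 20 windows, with a range from 41.3% at oc to 58.2% at ems, and 46.8% over all windows. The motif shares were not compared with those of sequence outside peaks. A match is a description of the letters and does not show a bound site.

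Other genes of the early patterning network were counted in the same way. Of 11 further gap and head gap genes, 9 had a summit, led by slp1, a forkhead factor, at rank 196, nub, a POU factor, at 524, and Kr, a zinc-finger repressor, at 554. The 2 with none were croc and byn. Of 8 maternal and terminal inputs only 2 had a summit, the early activator gene zld at rank 137 and the repressor gene cic at 414. The other 6, bcd, nos, tor, tsl, trk and gro, had none, and were assigned only 1.88 to 9.18 kb each. Of 6 family relatives of the 10 genes 4 had a summit, led by Ptx1 at 1088, eg, another knirps family gene, at 2333, and Gsc at 4032. E5, the neighbour and sister gene of ems, and Spps had none. All 9 genes of the anterior brain and eye field list had a summit, led by eya at 357, so at 1160 and Rx at 2214. These counts stand beside the 19.5% of all protein-coding genes and the 41.5% of those assigned 9.36 to 39.1 kb, and none was tested. Some of the listed genes lie outside that range, such as cic with 58 kb and Kr with 5.78 kb.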

How the data were processed

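Per the deposited file descriptions, the authors made 1 narrowPeak list on dm6 for every replicate and 1 from the pooled alignments, each against a control, and drew the optimal set from these lists. For aligner, caller and IDR threshold nothing is given in the sources used here, and the control was not used here. The deposited signal of each peak, from the authors' caller, served only to rank peaks within a list. The deposited summit offset gave positions, and the deposited −log10 q-value was read but entered no result. The lists hold no read counts, so no interval from depth is given. The labels do not say how embryos were collected, so SDs may be partly technical. The age of 2 to 18 h was taken from the source names because the age label is no embryo's age, and anti-GFP follows the sample descriptions, where the antibody label reads pros.

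Genes came from Ensembl release 115 (BDGP6, dm6 coordinates), counting protein-coding and non-coding RNA genes. Summit positions are 1-based. Summits of 2 lists matched within 150 bp, and for the replicates the 6215 strongest peaks were taken. Promoter means within 500 bp of a transcript start. Motifs were sought on either strand, 100 bp to each side of a summit. All 10 members are named, with each strongest summit. The members, gene lists and rules were chosen with earlier results of these data known, and no test was made, because there is 1 group. 1 listed symbol (nos) was matched as nanos. Python 3.11.15, pandas 2.3.3 and SciPy 1.17.1 were used. The assignment was tested on simulated summits placed at known genes.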

Additional observations from a re-analysis of the deposited data

How the results depend on the processing

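The counts depend on how strict the peak set is. In the stronger 50% of the optimal set there were 7 summits at 5 of the genes, of which 7 recurred in all 3 replicates, 3 were at a promoter and 1 had AAGACG. Without the intergenic rule 11 of the 20 summits were left, at the same number of genes, 8. With summits required within 50 bp, 7 of 20 recurred in all 3 replicates, against 16 within 300 bp and 19 in the full lists. The other alternatives tried for these counts stayed within 1.5 times the reported count. Leaving out 1 of 3 ranks cannot move a mean by 1 SD, so the mean ranks without a replicate say nothing of stability. Keeping only summits found in both other replicates, each replicate left out gave 14 to 17 summits at 7 or 8 genes. The count that recurred is the same 14 to 17 by construction. cad was lost without replicate 1 and without replicate 3. The choice to leave out replicates was added after seeing the data for promoter summits (6 to 7) and for AAGACG (2 to 2). Ranks by the p-value column could not be made, since it holds the same value for every peak. No paired analysis was possible because there is 1 group. Depth is unknown, and why gt and btd had no summit in the optimal set was not tested.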
